A study of Nicrophorus vespilloides with 24 samples.

Results

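Among the RNAs measured in the heads of the burying beetle Nicrophorus vespilloides, 50 of 11403 loci were selected on measured values, namely that their counts were lower in caring than in control females under both social conditions while the counts of males stayed close to their controls. A locus is a contig of a transcriptome assembly, or several contigs that share sequence, and stands for a gene. Each count was divided by its library's size factor (the median ratio of that library's counts to the geometric means over all libraries), and the result is called the scaled count below. The scaled count plus 1 was taken to log2 and averaged over the 2 libraries of a group, and the control mean was subtracted from the caring mean of the same sex and social condition. Of the 11403 loci, 8491 had a mean scaled count of at least 20 over all 24 libraries. At 4424 of these both male differences lay between -0.3 and 0.3. Post-caring libraries, from beetles whose care had ended, entered the choice only through this mean and the size factors. The 4424 were ranked by the larger, that is the less negative, of their 2 female differences, and the 50 lowest were taken. Another 7 loci were to be left out by name, but none of them met these limits, so leaving them out removed no locus.

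The 24 libraries were 2 for each of 12 groups, and each library held tissue of 10 heads. Caring beetles were taken while they were with larvae on a carcass, either with a mate (biparental) or alone (uniparental), and post-caring beetles after care had ended. Control beetles were paired and could mate, with no other social contact, but were given no carcass and so could not breed. Caring and control beetles thus also differed in access to a carcass and in breeding. All beetles were kept singly for a day before their heads were taken. Post-caring beetles had been paired at a younger age than the others. Each social condition had control and post-caring groups of its own, for females and males. All beetles were 21 days past adult eclosion and came from a stock with its origin in Cornwall, and no group carried a mutation or a drug. The samples were labelled brains, but the dissected tissue also held fat body and connective tissue of the head, and biparental males were taken beside a caring partner, so the label does not say how much of the care a male gave. Because heads were pooled, the spread between 2 libraries is that between pools. Since each library mixed the cells of the tissue, less RNA per cell cannot be told apart from fewer cells of a type.

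Burying beetles raise their larvae on the carcass of a small vertebrate and feed them regurgitated food. Either parent can do so, but only females lay eggs, and the fat body, the insect counterpart of liver and fat tissue, secretes the yolk protein vitellogenin for them. Secreted proteins enter the endoplasmic reticulum through a channel with which the signal sequence receptor, also called the translocon-associated protein complex, is associated. Peptide hormones are released by neuroendocrine cells, and in Drosophila the transcription factor Dimmed promotes the secretory fate of such cells.

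Only 8 of the 50 loci had a description in the study's list of 866 described loci, which the study itself picked for changes between these groups, so a description is no independent evidence of a change. Locus_27563, first in rank, matched dimmed of the flour beetle Tribolium castaneum. Locus_7538 matched the beta subunit of the signal sequence receptor. Locus_71330 and Locus_42810 matched cytochrome P450 proteins, oxygen-adding haem enzymes of hormone, lipid and toxin metabolism. The second of the pair matched P450 26B1 of a mosquito, and enzymes of that name clear retinoic acid in vertebrates. Locus_1370 matched a click beetle luciferase, a member of the adenylate-forming enzymes that also include the fatty acyl-CoA synthetases. Locus_6499 matched amyloid beta precursor protein binding protein 2, known in mammals for binding the tail of the amyloid precursor. Locus_5837 matched secp43, an RNA-binding protein associated with the selenocysteine tRNA in mammals. Locus_157 matched a hypothetical protein of the fire ant. The list covers genes that the paper called differentially expressed in any of its comparisons of parenting with control beetles. The other 42 loci have no description in that list and are given by their number alone.

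The values that chose the loci are given here as a description. In caring females the median difference from control over the 50 loci was -0.82 ± 0.20 under biparental and -0.71 ± 0.16 under uniparental conditions, on the log2(scaled count + 1) scale (± is the SD of the median over the 4 ways to pair 1 caring with 1 control pool). The median over the 8491 loci was -0.01 in both. In caring males the medians of the 50 loci were -0.11 ± 0.10 and -0.12 ± 0.05 in the same order of social conditions, against -0.01 and 0.00 over the 8491 loci. Male differences were below 0 at 37 of 50 loci under biparental and at 40 of 50 under uniparental conditions, so most of these loci sat slightly lower in caring males too, within the limit. The female differences spanned -1.89 to -0.50 in biparental and -2.22 to -0.49 in uniparental females.

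**Figure D1:**
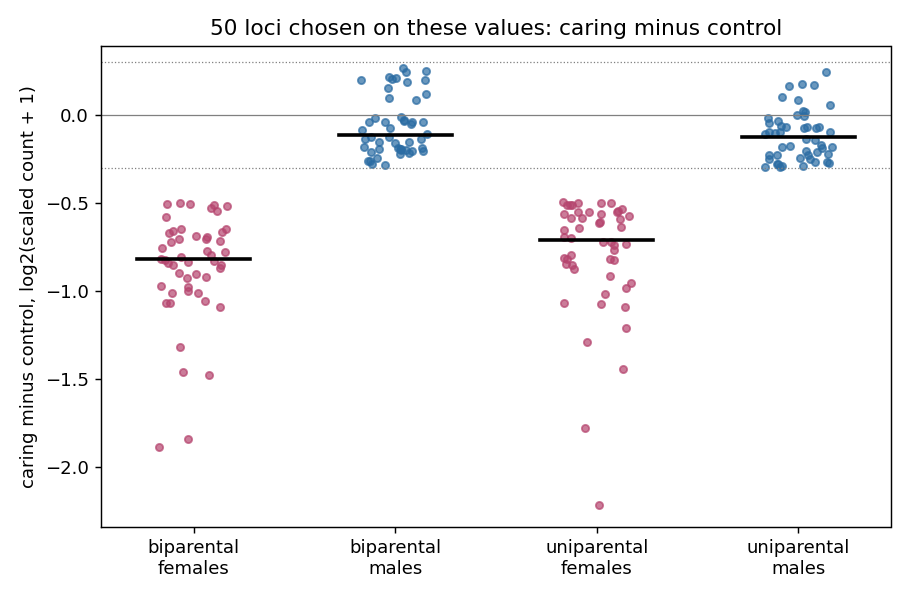
Caring minus control on the log2(scaled count + 1) scale for 50 loci (points) in 4 groups, with the median of each as a black bar and the limits of -0.3 and 0.3 for males as dotted lines. Female points lie at -0.49 or below and male points within the limits, as the choice of the loci requires.

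By the quasi-likelihood test of edgeR, with p-values adjusted by the Benjamini-Hochberg method over the 9648 loci that passed its filter on low counts, all 50 among them, 28 of the 50 were called lower (adjusted p under 0.05) in caring biparental females, where 2.92% of all tested loci were. In caring uniparental females 30 were called lower, against 7.55% of all loci. In caring males the counts were 0 under biparental conditions, against 0.0104% of all loci, and 0 under uniparental conditions, against 2.82%. At an unadjusted p under 0.05 these male comparisons gave 1 and 0 of the 50 loci, against 754 and 1981 of the 9648. The likelihood ratio test and DESeq2 called 0 of the 50 in both. The same libraries chose the loci, so nothing is read from these counts. Whether the caring change was lower in females than in males was tested as a difference of differences. This called 0 of the 50 loci under biparental and 0 under uniparental conditions, where 0.0207% of all loci were called lower in each. Unadjusted p under 0.05 was found at 26 of the 50 under biparental and 24 under uniparental conditions, against 672 and 867 of the 9648. The likelihood ratio test called 3 and 4 of the 50, against 40 and 104 of all loci in either direction. DESeq2 called 2 and 10 of the 50, against 35 and 165 of all loci. The same libraries chose the loci, so nothing is read from these counts either. 

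The last ranks inside the limit were Locus_30748, Locus_C843989 and Locus_14587, with ranking values of -0.50, -0.50 and -0.49. The first ranks outside, Locus_21641, Locus_1990 and Locus_C892674, all had -0.49. The 50 loci are thus a slice of a continuous range. The mean scaled count of the 50 had a median of 199.9 and ran between 21.1 at Locus_14587 and 8736 at Locus_C902366, while the median of the 8491 loci was 335. After Locus_C902366 the most abundant were Locus_8281, Locus_42182, Locus_C915260 and Locus_674, with mean scaled counts of 5365, 3246, 2694 and 2671. Of the 50, 36% had an identifier of a single contig, against 27.9% of the 8491.

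The described locus with the strongest rank was the dimmed-like Locus_27563. It had 272 and 234 in control, 66.9 and 72.7 in caring and 172 and 162 in post-caring biparental females, in scaled counts. Males had 83.6 and 99.9 in control, 85.9 and 86.1 in caring and 63.1 and 92.4 in post-caring biparental males. Each caring female library thus lay below both male libraries of that state, and each control and post-caring female library lay above every male library of its state. The uniparental libraries had the same shape in females, with 197 and 225 in control, 55.4 and 66.4 in caring and 236 and 169 in post-caring uniparental females. Uniparental males had 61.9 and 42.5 in control, 39.5 and 46.9 in caring and 62.3 and 58.9 in post-caring uniparental males, so here both caring females stayed above both caring males. In post-caring libraries, whose differences the choice of loci did not use, the log2 fold change of females over males was 1.43 ± 0.15 (SE), with an adjusted p of 9.54e-06, averaged over both social conditions in edgeR's fit.

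Locus_7538, the signal sequence receptor subunit, had 1062 and 2073 in control, 755 and 895 in caring and 1471 and 2194 in post-caring biparental females (scaled counts). In males it had 1006 and 702 in control, 756 and 694 in caring and 944 and 1102 in post-caring biparental males. Its control female pools lay far apart, with the lower of them close to the higher control male. Uniparental females had 886 and 1199 in control, 416 and 475 in caring and 1422 and 1155 in post-caring uniparental females, and uniparental males 445 and 586 in control, 438 and 492 in caring and 612 and 647 in post-caring uniparental males. No post-caring female library overlapped the post-caring males of its condition, and the log2 fold change of post-caring females over males was 0.95 ± 0.19 (SE), with an adjusted p of 0.00191. The alpha subunit of the same complex, Locus_16717, was not among the 50 because its male differences of -0.36 and -0.38 were beyond the limit. It fell with caring by 1.63 in biparental and by 1.69 in uniparental females on the log2(scaled count + 1) scale and was higher in post-caring females than males by 1.41 ± 0.17 (log2 fold change ± SE, adjusted p = 4.19e-05). These were all the described loci with a word of that complex. Both were called lower in caring biparental and uniparental females, against 2.92% and 7.55% of all loci. Neither was called lower in caring males, against 0.0104% and 2.82% of all loci. Locus_7538 was chosen on such values and both loci come from the study's list of changed loci, so nothing is read from these calls.

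The P450 26B1-like Locus_42810 had 136 and 199.6 in control, 54.4 and 64.4 in caring and 89.4 and 238 in post-caring biparental females. In scaled counts, biparental males had 33.4 and 38.5 in control, 47.7 and 22.5 in caring and 72.3 and 96.1 in post-caring biparental males. Uniparental females had 123 and 254 in control, 101 and 78.4 in caring and 314 and 296 in post-caring uniparental females, and uniparental males 49.5 and 81.7 in control, 51.0 and 71.7 in caring and 76.5 and 119.5 in post-caring uniparental males. Caring females stayed above caring males at this locus under both conditions, and the post-caring biparental females overlapped the males. The post-caring sex difference was 1.32 ± 0.30 (SE), with an adjusted p of 0.00543. The other P450 locus, Locus_71330, had the lowest uniparental female difference of all 50, -2.22.

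Locus_71330 had 89.2 and 172 in control, 22.7 and 84.1 in caring and 123 and 224 in post-caring biparental females, against 152 and 82.6 in control, 141 and 116 in caring and 108 and 178 in post-caring biparental males. Its uniparental females had 206 and 418 in control, 82.4 and 47.3 in caring and 355 and 475 in post-caring uniparental females, and its uniparental males 97.3 and 152 in control, 132 and 122 in caring and 220.2 and 277 in post-caring uniparental males. Replicate pools of this locus differed widely, most of all between the caring biparental females. The post-caring sexes were not called different, with a log2 fold change of 0.52 ± 0.33 (SE), with an adjusted p of 0.293. Of the 20 described loci with P450 in their description, 19 were tested. In caring biparental females 7 were called higher and 8 lower, against 5.01% and 2.92% of all loci. The uniparental comparison called 9 higher and 6 lower in caring females, against 3.61% and 7.55% of all loci. Locus_42810 and Locus_71330 were chosen on such values, and the 19 come from the study's list of changed loci. Nothing is therefore read from these counts. In post-caring females 3 of the 19 were called higher than in males and none lower, against 8.40% and 10.8% of all loci.

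Locus_1370, the luciferase match, had 172 and 109.9 in control, 26.1 and 50.9 in caring and 217 and 172 in post-caring biparental females. Biparental males held 94.8 and 75.5 in control, 87.3 and 79.9 in caring and 129 and 134 in post-caring biparental males. Under uniparental conditions females had 182 and 229.8 in control, 91.2 and 60.5 in caring and 323 and 275 in post-caring uniparental females, and males 92.0 and 171 in control, 92.6 and 114 in caring and 166 and 138 in post-caring uniparental males. Every caring female library was lower than each caring male library of its condition, by little in the higher uniparental pool, and every post-caring female library was higher than each post-caring male library of its condition. The post-caring log2 fold change was 0.78 ± 0.21 (SE), with an adjusted p of 0.0143. This call was lost without biparental female post-caring replicate 1 (0.67), uniparental female post-caring replicate 1 (0.73) or uniparental male post-caring replicate 2 (0.70). Of the 7 described loci of the adenylating acyl-CoA enzymes, 4 were called lower and 0 higher in caring biparental females, against 2.92% and 5.01% of all loci. In those that cared alone 5 were lower and 1 higher, against 7.55% and 3.61%. The higher one was Locus_59490, named after its values were seen. Locus_1370 was chosen on such values and the 7 come from the study's list of changed loci, so nothing is read from these counts. In caring males 0 of the 7 were called under biparental conditions and 1 was lower under uniparental conditions, where 0.0104% and 2.82% of all loci were lower. In post-caring females Locus_1370 alone was called higher than in males, against 8.40% of all loci.

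**Figure D2:**
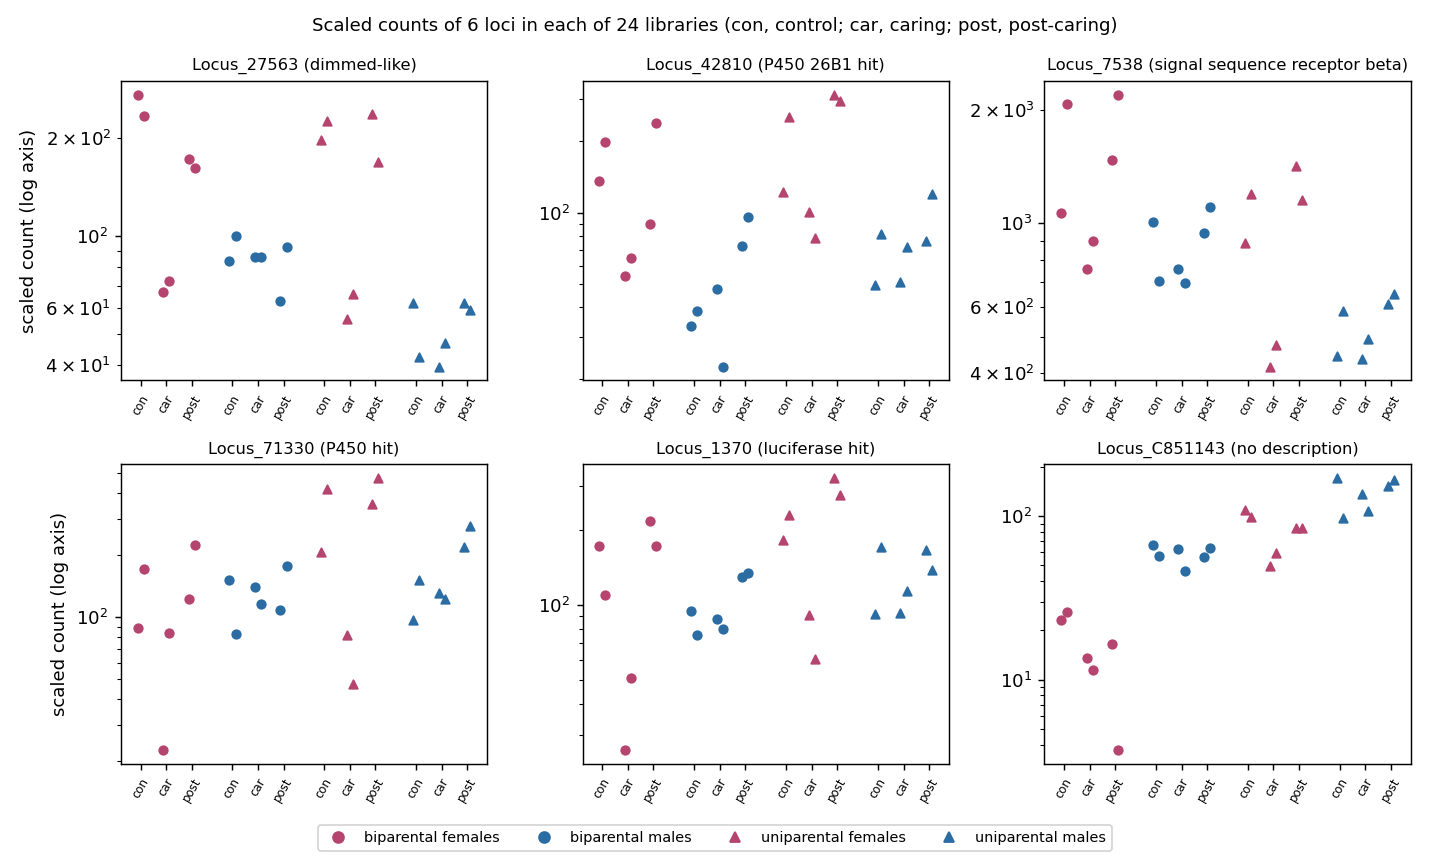
Scaled counts on log axes for 6 loci in each of the 24 libraries, with biparental groups (circles) left of uniparental groups (triangles), females left of males, and control, caring and post-caring in order within each sex. At Locus_27563 caring females hold 55.4 to 72.7 scaled counts, against 162 to 236 in post-caring females, while at Locus_C851143 females lie below males of the same group in all 3 biparental states.

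The 3 remaining described loci followed a similar course. Locus_6499 had 343 and 341 in control, 154 and 120.5 in caring and 248 and 263 in post-caring biparental females, and 139 and 182 in control, 153 and 135 in caring and 188 and 114 in post-caring biparental males. In uniparental beetles it had 420 and 593 in control, 198 and 209 in caring and 618 and 519 in post-caring uniparental females, and 210.4 and 227 in control, 185 and 175 in caring and 301 and 266 in post-caring uniparental males. Control females were above control males and caring females lay within or near the range of caring males, while the post-caring sex difference was 0.90 ± 0.14 (SE), with an adjusted p of 3.67e-04.

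Locus_5837 had 1578 and 2259 in control, 905 and 895 in caring and 1415 and 1775 in post-caring biparental females, and 1106 and 1054 in control, 955 and 982 in caring and 1047 and 1309 in post-caring biparental males. Uniparental females had 1044 and 1383 in control, 563 and 566 in caring and 1405 and 1168 in post-caring uniparental females, and males 738 and 765 in control, 727 and 715 in caring and 713 and 694 in post-caring uniparental males. Here all 4 caring female libraries were below all caring male libraries of their condition, and the post-caring females were above the males, by 0.67 ± 0.12 (SE), with an adjusted p of 6.87e-04 on the log2 scale. Locus_157 had 1508 and 2562 in control, 888 and 1071 in caring and 1988 and 2173 in post-caring biparental females, and 1244 and 969 in control, 993 and 926 in caring and 1074 and 1214 in post-caring biparental males. Its uniparental females had 1324 and 1997 in control, 741 and 809 in caring and 2368 and 1921 in post-caring uniparental females, and males 767 and 1076 in control, 762 and 791 in caring and 886 and 1007 in post-caring uniparental males. At Locus_157 the caring sexes overlapped under both conditions and the post-caring sexes under neither, and the post-caring log2 fold change was 1.04 ± 0.16 (SE), with an adjusted p of 2.69e-04.

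Over the 50 loci the median difference between the sexes was above 0 in controls, below 0 during care and above 0 after it. The median of females minus males, on the log2(scaled count + 1) scale, was 0.48 ± 0.21 in control, -0.20 ± 0.12 in caring and 0.27 ± 0.11 in post-caring biparental beetles (± as above, over 4 pairs of libraries). In uniparental beetles it was 0.46 ± 0.16, -0.08 ± 0.05 and 0.40 ± 0.17 in the same order. The medians over the 8491 loci were between -0.03 and 0.02 in all 6. The control and caring values follow in part from the choice of the loci, since a locus whose control females happened to be high was more likely to be taken. The post-caring libraries entered the choice only through the mean scaled count and the size factors. Without biparental female post-caring replicate 2 the post-caring biparental median was 0.10, and without biparental male post-caring replicate 1 it was 0.14.

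**Figure D3:**
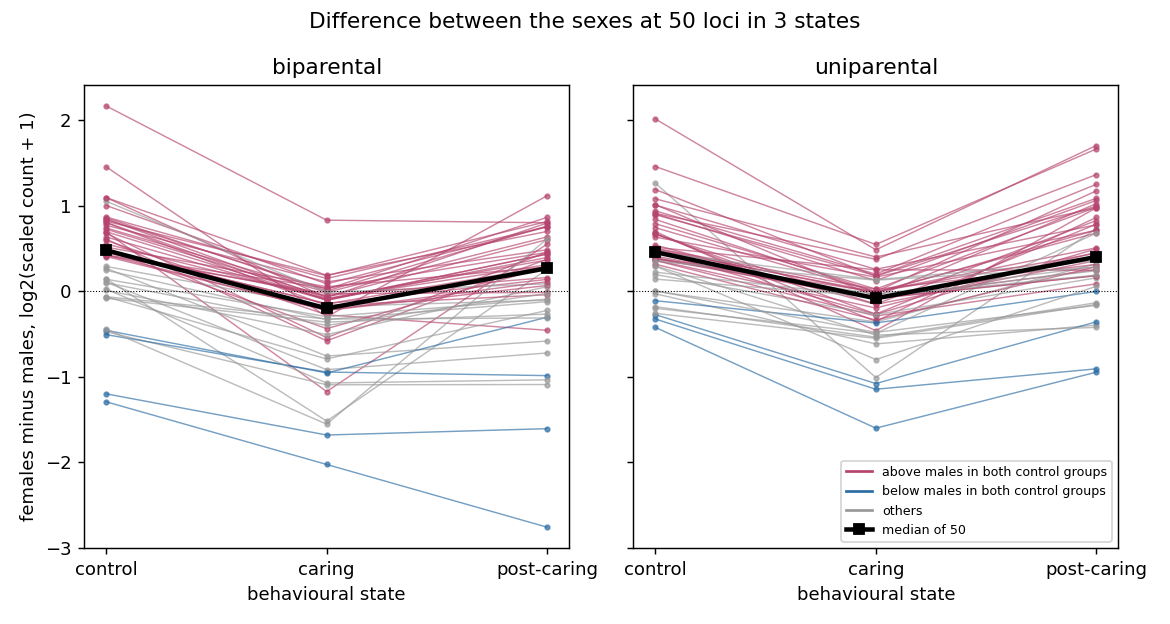
Females minus males on the log2(scaled count + 1) scale for 50 loci (thin lines) in control, caring and post-caring beetles, with the median in black, coloured by whether a locus was over 0.3 above males in both control groups (31 loci), over 0.1 below them in both (4 loci) or neither (15 loci). The medians dip to -0.20 and -0.08 in caring beetles and stand at 0.27 and 0.40 after care.

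In the post-caring libraries, 19 of the 50 loci were called higher in females than in males by edgeR's quasi-likelihood test on the mean of both social conditions, that is 38% of them, against 8.40% of all 9648 tested loci. Another 4 of the 50 were called lower, or 8%, against 10.8% of all loci. The median log2 fold change of females over males was 0.34 over the 50 loci and 0.03 over all tested loci, and 37 of the 50 were above 0, against 53.1% of all loci. Under biparental conditions alone 10 of the 50 were called higher, against 3.79% of all loci, and 4 lower, against 6.32%. Under uniparental conditions alone 16 were called higher, against 1.62%, and 0 lower, against 4.02%. For this last count edgeR gave 25 of the 50 loci an unadjusted p under 0.05 in either direction, against 1977 of the 9648. The likelihood ratio test and DESeq2 each called 1 of the 50 lower. Both post-caring female libraries lay above both male libraries under each social condition at 21 of the 50 loci, against 12.3% of all loci, and below them at 4, against 14.3%.

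The counts of single social conditions rested on few pools. The 10 loci higher in biparental females became 4 without biparental male post-caring replicate 2, 5 without biparental male post-caring replicate 1 and 5 without biparental female post-caring replicate 2. The 16 in uniparental females became 7 without uniparental female post-caring replicate 1, 7 without uniparental male post-caring replicate 2 and 10 without uniparental male post-caring replicate 1. The count of 19 on the mean of both conditions stayed between 17 and 19 with each post-caring library left out. Whether the sex difference itself differed between uniparental and biparental beetles was tested as an interaction, a comparison added after seeing the data. It called 0 of the 50 loci in edgeR, against 0.00% of all loci. There 5 of the 50 had an unadjusted p under 0.05, against 669 of the 9648 loci tested. Neither the likelihood ratio test nor DESeq2 called any of the 50.

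**Figure D4:**
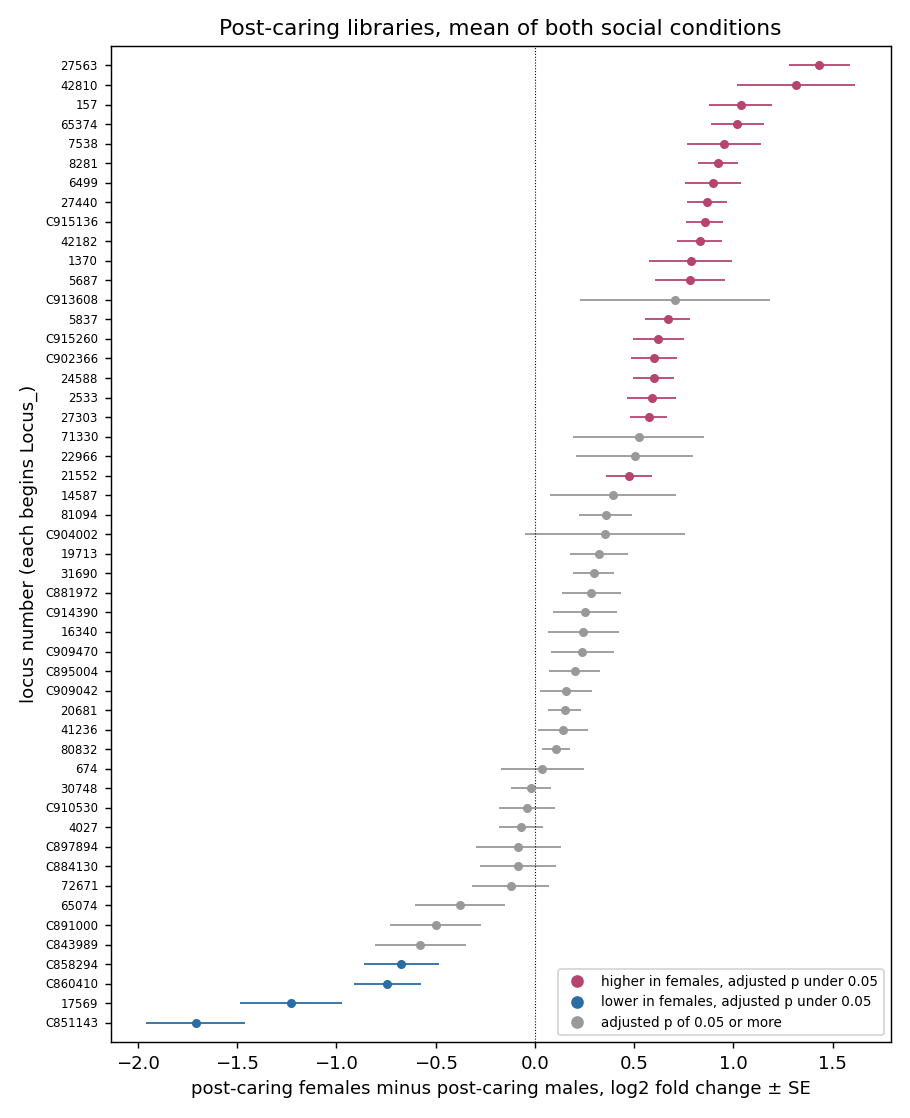
Log2 fold change of post-caring females over post-caring males, averaged over both social conditions, with its SE, for the 50 loci in order of size. The 19 loci called higher in females run between 0.47 and 1.43, and the 4 called lower between -1.71 and -0.67.

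Sums over described loci named for other tissues are given here by sex and state. Over the 14 described fat body loci (vitellogenin, hexamerin, arylphorin and apolipophorin by description), the summed scaled count was 3785461 to 10390063 in control, 658913 to 1545811 in caring and 2561298 to 4111229 in post-caring females. In males it was 64488 to 136209 in control, 8321 to 35073 in caring and 24497 to 42600 in post-caring beetles. The sum was thus higher in females in each state, and in each sex every caring library was below every control library. Against post-caring beetles the caring females were lower without overlap, while the ranges of the males overlapped. By locus, caring biparental females had 2 of the 14 called lower and 0 higher, against 2.92% and 5.01% of all loci. Caring uniparental females had 2 of each, against 7.55% and 3.61%. Caring biparental males had 0 called, and caring uniparental males 10 lower and 0 higher, where 0.0104% and 2.82% of all loci were lower. In post-caring females 10 of the 14 were called higher than in males and 1 lower, against 8.40% and 10.8% of all loci. The paper found vitellogenin, which belongs to this list, lower during parenting in both sexes. A change in the RNA of these genes per cell cannot be told apart here from a change in the amount of fat body. The 38 muscle loci (titin, myosin, troponin and the like) summed to 834310 to 1258676 in control females, against 1802517 to 3126855 in males. In caring beetles this sum was 351979 to 948325 in females, against 1276840 to 2649747 in males. Post-caring females had 530977 to 778527, against 1336269 to 2256711 in post-caring males. The muscle sum was thus lower in females in each state. Of the 38, 36 were called lower in post-caring females than in males, against 10.8% of all loci. In caring uniparental females 37 of the 38 were called lower than in control, against 7.55% of all loci. In caring biparental females 0 were lower and 1 was higher, against 2.92% and 5.01%. Caring biparental males had 0 of the 38 called, and caring uniparental males 2 lower and 0 higher. The shares of all loci called lower in these males were 0.0104% and 2.82%. Over the 5 neuron loci, which include the dimmed-like Locus_27563, the sum was 719 to 1147 in control females, against 769 to 957 in males. In caring beetles it was 508 to 831 in females, against 957 to 1058 in males. Post-caring females had 461 to 683, against 708 to 1072 in males. The 2 photoreceptor loci summed to 17579 to 60010 in control females, against 13605 to 40167 in males. Caring females had 29676 to 149197 there, against 13306 to 128939 in males. Post-caring females had 17600 to 156272, against 46873 to 164185 in males. No marker locus was at 0 in all libraries of the series. Of the 4 neuron loci tested, Locus_27563 was called higher in post-caring females than in males and 1 was lower. The shares of all loci were 8.40% and 10.8%. The sums cover unlike numbers of loci from a list of changed loci, so they do not measure the amount of each tissue. The descriptions come from the study's own list of changed loci, and the part of fat body or muscle in the values of the 50 loci was not tested.

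Besides 7 described loci, 12 loci without a description were called higher in post-caring females. Locus_65374 had 1493 and 1271 scaled counts in post-caring biparental females, against 774 and 863 in males, and 1589.9 and 1383 in uniparental females, against 629.5 and 616 in males. The female pools of Locus_65374 were above the males under both conditions, by 1.02 ± 0.13 (SE), with an adjusted p of 7.12e-05, on the log2 scale. Locus_8281, second in abundance, had 9018 and 8974 scaled counts in post-caring biparental females, against 4936 and 5748 in males, and 6609 and 6018 in uniparental females, against 3051 and 2988 in males. Its pools were close within each group, and the log2 fold change was 0.92 ± 0.10 (SE), with an adjusted p of 1.18e-05. Locus_27440 had 2954 and 2534 scaled counts in post-caring biparental females, against 1756 and 1844 in males, and 2049 and 1638 in uniparental females, against 851 and 874 in males, a log2 fold change of 0.87. Locus_C915136 had 581 and 533 scaled counts in post-caring biparental females, against 364 and 322 in males, and 1080.4 and 884 in uniparental females, against 525 and 469 in males, a log2 fold change of 0.86. In neither locus did a female pool overlap a male pool of its condition.

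Locus_42182, also among the most abundant, had 5261 and 6219.5 scaled counts in post-caring biparental females, against 3581 and 3785 in males, and 4656 and 3842 in uniparental females, against 2105 and 2177 in males, with a log2 fold change of 0.83. Locus_5687 was far less abundant, with 81.8 and 119.9 scaled counts in post-caring biparental females, against 61.9 and 54.2 in males, and 293 and 192 in uniparental females, against 122 and 169.6 in males, and had a log2 fold change of 0.78. Both loci again showed no overlap between the sexes within a condition. Locus_C915260 had 3832 and 3848 scaled counts in post-caring biparental females, against 2501 and 3232 in males, and 3848 and 3102 in uniparental females, against 2039 and 1972 in males, and a log2 fold change of 0.62. Locus_C902366, the most abundant of the 50, had 10361 and 12842 scaled counts in post-caring biparental females, against 8347 and 8482 in males, and 13412 and 12452 in uniparental females, against 7040 and 8791 in males, and a log2 fold change of 0.60. Both were called under uniparental conditions and on the mean of both conditions, but not under biparental conditions alone.

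Locus_24588 had 1192 and 1136 scaled counts in post-caring biparental females, against 917 and 753 in males, and 3142 and 2531 in uniparental females, against 1806 and 1712 in males, with a log2 fold change of 0.60. Locus_2533 had 522 and 568 scaled counts in post-caring biparental females, against 416 and 429 in males, and 1151 and 997 in uniparental females, against 582 and 671 in males, with a log2 fold change of 0.59. At both, uniparental beetles of either sex held more than biparental beetles of that sex. Locus_27303 had 1654 and 1797 scaled counts in post-caring biparental females, against 1312 and 1525 in males, and 2339.8 and 1928 in uniparental females, against 1188 and 1206 in males, and a log2 fold change of 0.57. Locus_21552 had 509 and 469.7 scaled counts in post-caring biparental females, against 392 and 353 in males, and 702 and 508 in uniparental females, against 386 and 457 in males, and a log2 fold change of 0.47. Locus_21552 was the smallest difference called, and its call was lost when the post-caring libraries were fitted alone (0.47) or without uniparental female post-caring replicate 1 (0.35).

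The 4 loci called lower in post-caring females had no description. Locus_C851143 had 16.4 and 3.7 scaled counts in post-caring biparental females, against 56.5 and 64.1 in males, and 84.6 and 84.3 in uniparental females, against 152 and 167 in males. Its biparental females held few counts, and in controls it had 23.3 and 26 in biparental females, against 66.9 and 57.0 in males. The log2 fold change of post-caring females over males was -1.71 ± 0.25 (SE), with an adjusted p of 1.66e-04. Locus_17569 had 92.6 and 40.8 scaled counts in post-caring biparental females, against 152 and 235 in males, and 91.5 and 75.0 in uniparental females, against 179 and 144 in males, and a log2 fold change of -1.23 ± 0.26 (SE), with an adjusted p of 0.00309. At both loci the biparental control females were also below the control males.

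Locus_C860410 had 42.5 and 34.6 scaled counts in post-caring biparental females, against 72.3 and 94.9 in males, and 109.8 and 108 in uniparental females, against 152 and 136 in males, and a log2 fold change of -0.74. Locus_C858294 had 157 and 97.7 scaled counts in post-caring biparental females, against 185 and 328 in males, and 231 and 252 in uniparental females, against 341 and 281 in males, and a log2 fold change of -0.67 ± 0.19 (SE), with an adjusted p of 0.0204. Locus_C858294 lost its call when the post-caring libraries were fitted alone (-0.68), and without biparental female post-caring replicate 2 (-0.53), biparental male post-caring replicate 2 (-0.44), uniparental female post-caring replicate 1 (-0.64) or uniparental male post-caring replicate 1 (-0.59). All 4 loci were called lower under biparental conditions and none under uniparental conditions.

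The 50 loci were not uniform in the difference between the sexes. Grouped after their values were seen, 31 were over 0.3 above males in both control groups, 4 were over 0.1 below males in both, and 15 were neither. All 19 loci called higher in post-caring females were among the 31, and 3 of the 4 called lower were among the 4. For the 31, the median of females minus males was 0.70 in control, -0.09 in caring and 0.44 in post-caring biparental beetles, and 0.67, -0.01 and 0.78 in uniparental beetles. For the 4, it was -0.85, -1.32 and -1.30 in biparental and -0.30, -1.11 and -0.63 in uniparental beetles. For the 15 it was 0.10, -0.51 and -0.12, and 0.20, -0.48 and 0.19. Since the groups were formed on control values, only the post-caring values are separate from the grouping. The median of the mean scaled count was 934 over the 19 called higher, 128 over the 4 called lower and 135 over the 27 not called.

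After care the loci stood above their caring level in females. The median of post-caring minus caring was 0.69 ± 0.12 in biparental and 0.90 ± 0.15 in uniparental females, against 0.24 ± 0.08 and 0.37 ± 0.07 in males of the same conditions, on the log2(scaled count + 1) scale. Both post-caring libraries were above both caring libraries at 41 of the 50 loci in biparental and 48 in uniparental females, against 28 and 37 in males. Over the 8491 loci that share was 19.8% and 33.2% in females and 17.7% and 26.4% in males. The caring libraries took part in the choice of the loci, so these values are a description. Measured from control, the post-caring medians were -0.13 ± 0.22 in biparental and 0.21 ± 0.20 in uniparental females, and 0.13 ± 0.09 and 0.24 ± 0.06 in males. The females' medians were within about the spread of single pairs of libraries, and the males' medians were above it. Over the 8491 loci the medians were 0.014 and 0.005 in females and -0.0003 and -0.002 in males. Without biparental female control replicate 2 the median of the 50 in biparental females was 0.01, and without replicate 1 of that group -0.37. Post-caring means were above control at 18 and 41 of the 50 loci in females and at 35 and 42 in males. In biparental females both post-caring libraries lay below both controls at 15 of the 50 loci, against 21.8% of the 8491, and in uniparental females at 5, against 18.2%. The lowest of these differences in biparental females were at Locus_C851143, Locus_C913608 and Locus_65074, with -1.50, -1.48 and -1.24, named after their values were seen.

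Post-caring beetles of the 2 social conditions were compared as a second measure, whose differences the choice of loci did not use. In uniparental females 17 of the 50 loci were called higher than in biparental females, against 20.7% of all loci, and 4 lower, against 19.8%. In males 12 were called higher, against 23.4%, and 6 lower, against 20.3%. On the mean of both sexes 20 were higher, against 29.9%, and 8 lower, against 27.5%. Of the 50, 34% were higher in females, 24% in males and 40% on the mean of both sexes, so the share in males was near that of all loci. The libraries of the social conditions also differed in depth (16131079 to 23906173 counts when uniparental, against 14647691 to 18156673 when biparental), and the part of depth in these differences was not tested.

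Among the loci called between the social conditions in either sex, the largest difference was at Locus_C851143, with a log2 fold change of uniparental over biparental beetles of 3.02 ± 0.39 (SE), with an adjusted p of 2.57e-05 in females, and of 1.44 ± 0.30 (SE), with an adjusted p of 0.00119 in males. Locus_5687 was higher in uniparental beetles of both sexes, by 1.27 in females and 1.37 in males, and Locus_24588 by 1.29 and 1.12 in the same order. Locus_27440 was lower in both, with -0.57 and -1.02, as was Locus_8281, with -0.51 and -0.78. These loci were called in each sex, in the direction given. At each of them the control beetles, which had not cared, differed in the same direction in both sexes. At Locus_C851143 the mean scaled count of control females was 103 when uniparental, against 24.6 when biparental, and that of control males 135, against 61.9. At Locus_27440 it was 1546, against 2732, in control females and 819, against 1651, in control males. The source of these differences was not tested.

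Other loci were called between the social conditions in both sexes but not between the sexes. Locus_674 had 4729.8 and 3818 scaled counts in uniparental females, against 1789 and 2062 in biparental females, and 3657 and 3974 in uniparental males, against 1966 and 2221 in biparental males. Locus_81094 had 242 and 223 scaled counts in uniparental females, against 108 and 146 in biparental females, and 190.5 and 172 in uniparental males, against 97.2 and 105 in biparental males. Locus_C891000 had 58.7 and 43.3 scaled counts in uniparental females, against 24.0 and 14.8 in biparental females, and 77.2 and 59.7 in uniparental males, against 22.3 and 37.0 in biparental males. These loci were higher in uniparental beetles of both sexes. Locus_41236 had 182 and 173 scaled counts in uniparental females, against 92.6 and 104 in biparental females, and 147 and 167 in uniparental males, against 95.9 and 91.2 in biparental males. Locus_C881972 had 348 and 289 scaled counts in uniparental females, against 188 and 180.5 in biparental females, and 272 and 262 in uniparental males, against 149.8 and 152 in biparental males. Locus_C909470 went the other way, with 106 and 96.7 scaled counts in uniparental females, against 149 and 163 in biparental females, and 85.0 and 77.8 in uniparental males, against 155 and 129 in biparental males. In none of these 6 loci did a uniparental pool overlap the biparental pools of its sex. Their log2 fold changes were between 0.79 and 1.38 in females and between 0.78 and 1.24 in males, apart from Locus_C909470 with -0.62 in females and -0.76 in males. At each of these 6 loci the control group means of the social conditions differed in the same direction, in both sexes.

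Called in females but not in males were Locus_71330, whose values are above, and 3 more without a call between the sexes. Locus_C897894 had 241 and 159 scaled counts in uniparental females, against 95.9 and 117 in biparental females, and 181 and 149 in uniparental males, against 126 and 169 in biparental males. Locus_20681 had 349 and 306 scaled counts in uniparental females, against 257 and 222 in biparental females, and 242 and 269 in uniparental males, against 265 and 245 in biparental males. Locus_C843989 had 73.2 and 48.0 scaled counts in uniparental females, against 19.6 and 23.5 in biparental females, and 65.1 and 67.0 in uniparental males, against 43.4 and 46.8 in biparental males. Whether females and males differed in this respect is the interaction above, which called none of the 50. On the mean of both sexes only, 4 loci without a call between the sexes were called. Locus_22966 had 108 and 72.8 scaled counts in uniparental females, against 37.1 and 55.6 in biparental females, and 58.8 and 67.0 in uniparental males, against 43.4 and 24.7 in biparental males, and Locus_65074 had 66.3 and 72.0 scaled counts in uniparental females, against 53.4 and 26 in biparental females, and 83.6 and 68.8 in uniparental males, against 59.1 and 65.3 in biparental males. Locus_C914390 had 155 and 104 scaled counts in uniparental females, against 93.7 and 98.9 in biparental females, and 106 and 117 in uniparental males, against 97.2 and 64.1 in biparental males. Locus_72671, the only one of the 4 that was lower in uniparental beetles, had 467 and 533 scaled counts in uniparental females, against 806 and 506 in biparental females, and 511 and 488 in uniparental males, against 703 and 883 in biparental males.

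The other 13 loci were called in none of the 6 post-caring comparisons between the sexes and between the social conditions. Their log2 fold changes of post-caring females over males, on the mean of both conditions, ran between -0.08 at Locus_C884130 and 0.71 at Locus_C913608, with a median of 0.20. Those of uniparental over biparental beetles, on the mean of both sexes, ran between -1.08 at Locus_C913608 and 0.91 at Locus_C904002. Their mean scaled counts were between 21.1 and 1320, so the set included loci well above the median abundance of the 50.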

How the data were processed

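The heads of pooled beetles were sequenced as 24 paired-end RNA libraries. The authors trimmed the reads (Trimmomatic 0.30), built contigs de novo, retained those with an arthropod blast hit, and mapped reads to them with Bowtie2. The deposited expected counts were estimated for each library by RSEM, without normalization or pooling of replicates, and 33.3% to 48.9% of the loci had a value with any fraction other than 0 (no tolerance). In the 4 male control libraries the header of the count column carried the other replicate number than the sample title, and replicates are numbered by title. Library totals were 14647691 to 23906173, with a median of 17535118.

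The deposited expected counts were rounded and tested with edgeR 4.0.16 in R 4.3.3 (TMM scaling, filterByExpr with a minimum count of 10, which removed 1755 of 11403 loci, a mean for each of the 12 groups, 12 residual degrees of freedom, quasi-likelihood test, Benjamini-Hochberg adjustment over 9648 loci within each of the comparisons). The SE of a log2 fold change was taken from its F statistic, as the change over the root of F. Scaled counts were computed from the unrounded values. On simulated counts for 9565 loci, 200 with a mean count of at least 20 were changed 2-fold. The test recovered 65% of these in the biparental, 65.5% in the uniparental and 87.5% in the mean post-caring sex comparison. It also called 5, 8 and 10 other loci. Many differences called above were smaller than 2-fold, and recovery of such differences was not measured. Nothing in the sources used here says that the pools of a group came from separate cultures or days, so p-values measure the spread between these pools, where the chi-square per degree of freedom between replicates was 18.7 to 74.4.

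The loci, the lists and the tests were chosen with earlier results of these data known. Named were every described locus, the 10 lowest ranks, the 5 most abundant, loci called in any of the 6 post-caring comparisons, and 3 ranks on either side of the limit. All libraries are printed for described loci, and the post-caring libraries for other called loci. The alternatives were the likelihood ratio test, DESeq2 1.42.0, RLE scaling, no filter, a replicate block, the post-caring libraries alone, TMM scaling, another pseudocount or minimum, and each library left out. The columns of fold changes and p-values of Supplementary Data 1 were not used. Contig sequences were not used here.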

Additional observations from a re-analysis of the deposited data

How the results depend on the processing

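Of the 50 loci, TMM scaling kept 49, a pseudocount of 5 kept 48, and minimum mean scaled counts of 50 and 10 kept 46 and 47, and leaving out single libraries kept 30 (without uniparental male control replicate 1) to 50. With the post-caring libraries fitted alone, 436 loci were called between the sexes under biparental, 203 under uniparental and 1181 on the mean of both conditions (against 976, 544 and 1853), and 5 of the 50 were called higher and 2 lower under biparental conditions. The likelihood ratio test, DESeq2 and the replicate block each called 1 of the 50 lower in post-caring uniparental females, against 0, and DESeq2 called 1 locus in the interaction, against 0.

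With each post-caring library left out in turn, the sexes differed at 392 to 1032 loci under biparental conditions, 85 to 607 under uniparental and 1033 to 1671 on the mean of both. Of the 50 loci, 4 to 10 were then higher and 1 to 5 lower under biparental, and 7 to 17 higher and 0 to 1 lower under uniparental conditions. Between the social conditions the same settings gave 2580 to 3989 loci in females and 2706 to 4356 in males, with 0 to 4 of the 50 lower in females and 5 to 8 lower on the mean of both sexes. Leaving out single libraries moved the median of the 50 loci for post-caring minus control to between -0.37 and 0.012 and for post-caring minus caring to between 0.56 and 0.81 in biparental females, and for the second of these to between 0.29 and 0.42 in uniparental males. For caring minus control it moved to between -0.90 and -0.57 in uniparental females and -0.16 and -0.045 in uniparental males. For females minus males it moved to between -0.33 and -0.11 in caring biparental, 0.10 and 0.33 in post-caring biparental and -0.15 and -0.042 in caring uniparental beetles. The other medians moved by less than their SD. With 2 pools per group, the number of pools limits the precision of each comparison.

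Replicate numbers were not taken to pair the samples, since no label gives them a shared source and not every pair of groups deviated together. Deviations of same-numbered libraries correlated with r above 0.1 at 25 of 66 pairs of groups (-0.44 to 0.51), and at 1 of the 6 pairs of post-caring groups (-0.05 to 0.27). Of the 15 pairs within biparental groups 9 were above 0.1, or 14 (0.07 to 0.51) with the male control numbers of the column headers, and of the 15 within uniparental groups 6, or 3 with the headers' numbers (-0.34 to 0.24). With the replicate block 1148 loci were called between the sexes under biparental conditions, 684 under uniparental and 2046 on the mean of both, and of the 50 loci 11, 16 and 19 were higher, while 4, 1 and 4 were lower. With a replicate block on the headers' numbers, chosen after seeing the data, these counts were 1123, 657 and 2020 loci, with 11, 17 and 20 of the 50 higher and 4, 0 and 4 lower.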
